A study of Homo sapiens with 18 samples.

Results

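The response to thyroid hormone that HepG2 cells gained with added receptor was measured as an interaction. The difference between T3 and vehicle was taken within each replicate number in the TRα1 and TRβ1 pools, averaged over both pools, and reduced by the same difference in the control pool. This quantity is called the gain. It was computed for the 20546 of 32321 array features that carry a gene symbol, and it used 18 of 18 arrays, 12 from the receptor pools and 6 from the control pool. Every feature with a symbol entered the test, whatever its level or response.

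HepG2 is an established human liver cancer line. Its transformants were selected with G418 and carried a plasmid for the thyroid hormone receptor TRα1 (6 clones pooled), for TRβ1 (12 clones pooled), or the plasmid without a receptor (11 clones pooled, the control). Each of the 3 pools was given 100 nM T3, or ethanol as the vehicle, in DMEM whose 10% serum had been stripped of hormone, and was harvested after 6 h. There were 3 biological repeats of each of the 6 groups, with 200 ng of RNA labelled per array. Each construct was thus represented by 1 pool of clones, so that the receptor, the amount of it and the clones that made up a pool cannot be told apart.

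Thyroid hormone receptors are nuclear receptors that bind response elements in DNA, most often together with a retinoid X receptor. Without hormone they recruit corepressors to positively regulated genes. Binding of T3, the active thyroid hormone, exchanges these for coactivators. In the liver T3 is known to act on gluconeogenesis, fatty acid oxidation, lipogenesis and cholesterol handling.

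All values below are log2 expression levels, or differences between such levels, on which 1 unit is a doubling. Array medians lay between 5.31 and 5.49. The first principal component, with 49.2% of the variance, set the 6 arrays numbered 1 (between -39.2 and -32.3) apart from the 12 others (between 11.99 and 22.57). Every group had 1 array with that number, and the replicate number was a block in the fit. The 8 hepatocyte markers measured had group means between 10.19 and 12.86. The 5 endothelial markers had group means between 3.58 and 4.92. Of the 5 leukocyte markers, PTPRC, the pan-leukocyte antigen CD45, averaged 2.46, and LYZ (lysozyme) averaged 11.82.

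The gain passed the test for 6 features, all higher with added receptor (limma, Benjamini-Hochberg adjusted p under 0.05 over all 20546 features). They were CYP24A1, PTAFR, ENG, KCNJ10, FYN and ZNF717, and they made up 0.0292% of the features. No feature passed with a lower gain. At an unadjusted p under 0.05 there were 873 features, and the median standard error (SE) of a gain was 0.13. For each of the 6 genes, all 6 responses of the receptor pools lay above all 3 responses of the control pool, a separation shown by 323 features, or 1.57% of all. The opposite separation was shown by 288 features (1.4%). A single array decided the list: without the control vehicle array of number 3, 0 features passed, and the adjusted p of CYP24A1, PTAFR and ZNF717 became 0.0687. Without the replicate block 0 features passed, and likewise without the arrays numbered 1, 2 or 3, each number left out in turn. Within single numbers the gain of the 6 genes lay between 0.74 and 1.60. In RNA from whole cultures, more cells that express a gene and more RNA of it per cell cannot be told apart.

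CYP24A1 encodes the mitochondrial hydroxylase that inactivates vitamin D hormone. It lies on chromosome 20. In the TRα1 pool its levels were 7.91, 7.51 and 7.06 on T3 and 6.08, 5.56 and 5.28 on vehicle in numbers 1, 2 and 3. In the TRβ1 pool they were 7.22, 7.04 and 6.23 on T3 and 5.12, 5.34 and 4.54 on vehicle. The control pool had 7.42, 6.92 and 6.90 on T3 and 7.05, 6.52 and 6.46 on vehicle. The vehicle arrays of both receptor pools lay below every control array, and their T3 arrays overlapped the control arrays. The mean response of the receptor pools was 1.84 ± 0.10 (SE), that of the control pool 0.40 ± 0.15, and the gain was 1.44 ± 0.18 (95% interval 1.06 to 1.83, adjusted p = 0.00885). This corresponds to a 2.72-fold larger ratio of T3 to vehicle. The receptor pools differed from control by -1.36 ± 0.13 on vehicle (adjusted p = 2.81e-05), and by 0.09 ± 0.13 on T3 (adjusted p = 0.829). The gain of CYP24A1 was therefore carried by the vehicle arm.

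**Figure D1:**
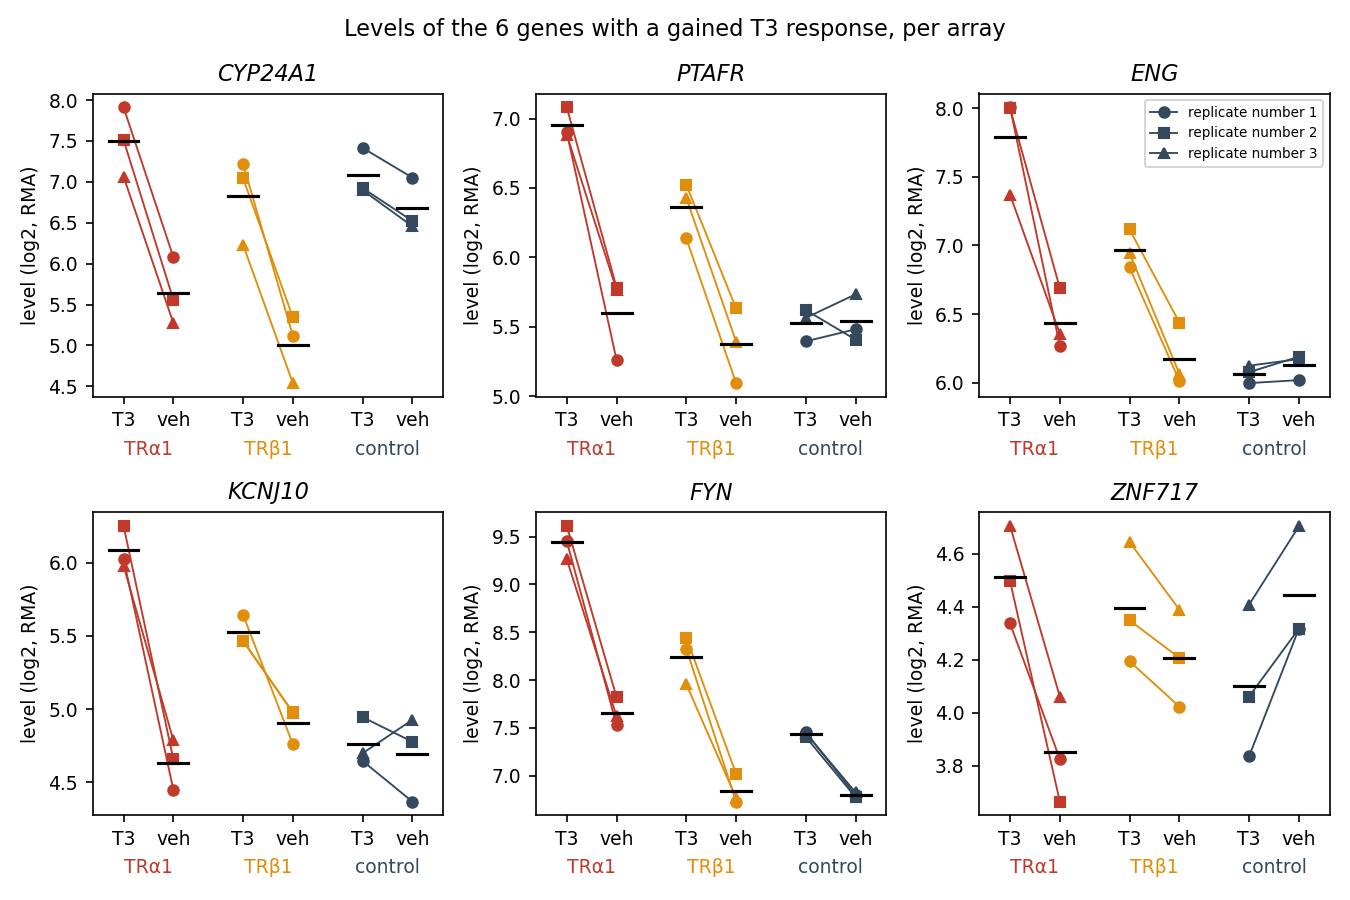
Level of the 6 genes with a called gain on each of the 18 arrays (vertical axis, log2 after RMA), by pool and treatment (T3 left of vehicle, "veh"). Lines join arrays of the same replicate number, marker shapes give that number, and black bars are means of 3 arrays. For PTAFR, ENG and KCNJ10 both receptor pools stand higher on T3 than on vehicle while the control pool is near level, and for CYP24A1 the low points are the vehicle arrays of the receptor pools.

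In the other 5 genes the receptor pools stood above control on T3, by a difference that passed the test. PTAFR encodes the receptor for platelet-activating factor, a G protein-coupled receptor of inflammatory signalling, and lies on chromosome 1. Its levels in the TRα1 pool were 6.90, 7.08 and 6.88 on T3 and 5.26, 5.78 and 5.77 on vehicle. Those of the TRβ1 pool were 6.14, 6.52 and 6.43 on T3 and 5.09, 5.63 and 5.39 on vehicle. In the control pool they were 5.40, 5.62 and 5.56 on T3 and 5.48, 5.41 and 5.73 on vehicle. All 6 T3 arrays of the receptor pools were above all 12 other arrays. The receptor pools responded by 1.17 ± 0.08 and the control pool by -0.01 ± 0.11, a gain of 1.19 ± 0.14 (adjusted p = 0.00808).

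The sequence before the PTAFR start is shown because its gain had the smallest p of all features. It comes from RefSeq (GRCh38.p14) and covers the 250 bases before the start, chr1:28193857-28194106 on the minus strand. Capitals mark the hexamer AGGTCA, the core that thyroid hormone and other nuclear receptors bind, here on the strand opposite to the gene, with its first base at -184.
PTAFR: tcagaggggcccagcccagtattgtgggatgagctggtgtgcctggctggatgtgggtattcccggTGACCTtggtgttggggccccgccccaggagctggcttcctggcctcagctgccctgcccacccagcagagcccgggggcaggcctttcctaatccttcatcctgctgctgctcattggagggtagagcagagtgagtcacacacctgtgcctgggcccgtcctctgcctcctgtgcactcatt
AGGTCA and the related GGGTCA were searched on both strands of 35116 promoter windows of this length. AGGTCA was found in 12.1% of them, GGGTCA in 12.1%, and either in 22.4%. The windows of ENG, KCNJ10, FYN and ZNF717 held neither. For each named gene only the window listed first was searched, and any other start sites were not. A match in a window is a description of its letters and not a bound site.

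ENG encodes endoglin, a co-receptor for TGF-β and bone morphogenetic proteins that is best known from endothelium, and lies on chromosome 9. Levels in the TRα1 pool were 8.01, 7.998 and 7.37 on T3 and 6.27, 6.69 and 6.36 on vehicle. In the TRβ1 pool they were 6.84, 7.12 and 6.94 on T3 and 6.01, 6.44 and 6.07 on vehicle. Control arrays lay at 6.00, 6.08 and 6.13 on T3 and at 6.02, 6.19 and 6.17 on vehicle, so the control pool showed almost no spread and no response. The receptor pools responded by 1.07 ± 0.09, the control pool by -0.06 ± 0.13, and the gain was 1.13 ± 0.16 (adjusted p = 0.0177). Of the 5 endothelial markers, 0 had a called gain. Their gains were above 0 for 4 of 5 (80%, against 48.6% of all features) and ran between -0.10 and 0.33. The highest was KDR, a receptor for vascular endothelial growth factor, whose receptor pool responses all lay above its control responses, as for 1.57% of all features. The median of their levels lay between 4.00 and 4.13 in the 6 groups. The part of such cells in the ENG result was not tested. Leaving out 1 array at a time kept ENG past the threshold in 12 of 18 cases.

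KCNJ10, an inward-rectifying potassium channel on chromosome 1, had levels of 6.03, 6.25 and 5.98 on T3 and 4.45, 4.66 and 4.79 on vehicle in the TRα1 pool. The TRβ1 pool had 5.65, 5.47 and 5.47 on T3 and 4.76, 4.98 and 4.98 on vehicle. Levels in the control pool were 4.65, 4.95 and 4.70 on T3 and 4.37, 4.78 and 4.93 on vehicle. The T3 arrays of the TRα1 pool were the highest, those of the TRβ1 pool came next, and the remaining groups overlapped. The gain was 0.97 ± 0.15 (adjusted p = 0.0303), from responses of 1.04 ± 0.08 in the receptor pools and 0.07 ± 0.12 in the control pool. This was the least stable of the 6 calls, kept in 6 of 18 fits that left out 1 array.

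FYN, a Src family tyrosine kinase on chromosome 6, also responded without added receptor. Its levels in the TRα1 pool were 9.45, 9.61 and 9.26 on T3 and 7.53, 7.82 and 7.62 on vehicle. In the TRβ1 pool they were 8.33, 8.44 and 7.96 on T3 and 6.73, 7.02 and 6.77 on vehicle. Control levels were 7.45, 7.40 and 7.44 on T3 and 6.80, 6.77 and 6.82 on vehicle. The control pool rose by 0.64 ± 0.10 (adjusted p = 0.0294) and the receptor pools by 1.60 ± 0.07 (adjusted p = 2.27e-08), leaving a gain of 0.96 ± 0.13 (adjusted p = 0.00934). On vehicle the receptor pools were already 0.45 ± 0.09 above control (adjusted p = 0.0189), where the TRα1 pool was the high one, at 7.66 ± 0.15 (SD, n = 3), with the TRβ1 pool at 6.84 ± 0.16 and control at 6.80 ± 0.03. The FYN call was lost without the control T3 array of number 2 or without the control vehicle array of number 3.

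ZNF717, a zinc finger gene on chromosome 3, was the dimmest of the 6, with a mean of 4.25 over all arrays. It belongs to a multigene family whose members can share probes, so its identity is uncertain. Within a number, T3 minus vehicle was 0.51, 0.83 and 0.64 with TRα1 and 0.17, 0.14 and 0.26 with TRβ1, against -0.48, -0.26 and -0.30 in the control pool. The receptor pools responded by 0.43 ± 0.06 and the control pool by -0.34 ± 0.08 (adjusted p = 0.259), a gain of 0.77 ± 0.10 (adjusted p = 0.00885). All 6 receptor pool responses were above 0 and all 3 control responses below it. The receptor pools differed from control by 0.35 ± 0.07 on T3 (adjusted p = 0.0138) and by -0.42 ± 0.07 on vehicle (adjusted p = 0.00568). Both arms thus made up this gain in similar parts, unlike CYP24A1, whose gain was carried by the vehicle arm.

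The gain is a mean over both receptors, and each was also fitted by itself. The gain of the TRα1 pool alone passed the test for each of the 6 genes, and over all features 6 (0.0292%) passed. The gain of the TRβ1 pool alone passed for 0 features by limma, with 835 at an unadjusted p under 0.05. Settings described in the closing section gave at most 2. CYP24A1 gained 1.43 with TRβ1 and 1.46 with TRα1. In the same order PTAFR gained 1.003 and 1.37, ENG 0.85 and 1.41, KCNJ10 0.55 and 1.38, FYN 0.77 and 1.15, and ZNF717 0.53 and 1.01. These pairs share the control arrays. The direct difference of the responses, TRβ1 minus TRα1, does not use them. It was -0.83 for KCNJ10 (95% interval -1.19 to -0.47), -0.56 for ENG (-0.96 to -0.16), -0.47 for ZNF717 (-0.72 to -0.23), -0.38 for FYN (-0.70 to -0.07) and -0.36 for PTAFR (-0.71 to -0.02). For CYP24A1 it was -0.03 (-0.47 to 0.42). These intervals are not adjusted for the number of features. Over all features the difference between isoforms was called for 0 by limma, with 619 at an unadjusted p under 0.05 and an adjusted p of 1 for each of the 6 genes. Intervals lying wholly below 0 were found for 5 of the 6 genes and for 1.3% of all features. An uncalled difference does not show that the isoforms acted alike.

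Among the next genes by p, the gain did not pass the test. Just inside the threshold stood KCNJ10 with an adjusted p of 0.0303, and just outside it a feature of SKP1 with 0.0672 and CX3CR1 with 0.089. That SKP1 feature, named after its values were seen, had a mean level of 2.25 and a gain of -1.25 ± 0.21, from -0.34 in the receptor pools and 0.91 in the control pool. The brighter feature of SKP1, a subunit of ubiquitin ligases, had a mean level of 8.86 and a gain of -0.10 ± 0.11 (adjusted p = 1). PCK1, the cytosolic phosphoenolpyruvate carboxykinase that limits gluconeogenesis, had the largest gain of the 6 named higher genes that did not pass. Its levels in the TRα1 pool were 6.31, 6.71 and 6.08 on T3 and 5.33, 5.45 and 5.27 on vehicle. In the TRβ1 pool they were 7.37, 7.47 and 6.23 on T3 and 5.29, 5.65 and 5.26 on vehicle, and control arrays stood at 5.41, 5.78 and 5.12 on T3 and 5.03, 5.72 and 5.33 on vehicle. Its mean response was higher in the TRβ1 pool than in the TRα1 pool, by 0.60 (95% interval 0.04 to 1.17, adjusted p = 1), and the TRβ1 array on T3 with number 3 lay well below the other 2 of its group. The gain was 1.24 ± 0.23 (adjusted p = 0.141). Of 18 fits that left out 1 array, it passed only in the 1 without that array (adjusted p = 0.00334). In the other 17 it did not pass, with an adjusted p of up to 0.552. It passed in 0 of the 7 whole-data settings of the closing section that tested it, and in 0 fits without a replicate number. The response of the receptor pools passed by itself (1.32 ± 0.13, adjusted p = 3.32e-05), while the control pool gave 0.08 ± 0.19.

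GBE1, the glycogen branching enzyme, gained 0.84 ± 0.16 (adjusted p = 0.142). Its T3 minus vehicle was 1.31, 1.48 and 1.19 with TRα1 and 1.16, 0.88 and 1.01 with TRβ1, against 0.32, 0.28 and 0.40 in the control pool. SLC51B, the β subunit of the organic solute transporter that exports bile acids, gained 0.57 ± 0.11 (adjusted p = 0.152). Its responses were 0.86, 0.70 and 0.92 with TRα1 and 0.68, 0.51 and 0.68 with TRβ1, against 0.08, 0.01 and 0.38 in the control pool. For both genes the receptor responses lay above the control responses without overlap, as for 1.57% of all features. Both were named by the p of their gain, a choice that favours such a separation. Of 18 fits that left out 1 array, each passed in the 1 without the control T3 array of number 3 (adjusted p 0.0261 for GBE1 and 0.0212 for SLC51B). SERPINB9, an inhibitor of granzyme B, gained 0.66 ± 0.13 (adjusted p = 0.279). Its responses were 0.96, 1.13 and 1.08 with TRα1 and 1.08, 1.13 and 0.97 with TRβ1, against 0.31, 0.26 and 0.64 in the control pool. The receptor pools differed from control by 1.15 ± 0.09 on T3 and by 0.50 ± 0.09 on vehicle (adjusted p = 7.77e-06 and 0.0148). SERGEF, a guanine nucleotide exchange factor homologue, gained 0.46 ± 0.09 (adjusted p = 0.231), and SMIM23, a small membrane protein gene, gained 0.52 ± 0.11 (adjusted p = 0.269), with a control response of -0.39.

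Of the 12 named genes with a higher gain, 10 had a promoter window in the RefSeq table. CYP24A1 and PCK1 had none. AGGTCA was held by 4 of the 10, PTAFR, GBE1, SLC51B and SERPINB9, against 12.1% of all 35116 windows. Only PTAFR of these 4 had a called gain, and the difference in share was not tested. The windows of SLC51B (chr15:65045137-65045386, plus strand, first base of the match at -54) and SERPINB9 (chr6:2903310-2903559, minus strand) are printed because they differ in the arrangement of the hexamers, again from RefSeq, GRCh38.p14. Capitals mark AGGTCA and, in SERPINB9, also GGGTCA, which there overlaps an AGGTCA by 1 base. In SERPINB9 all 3 matches are on the strand opposite to the gene.
SLC51B: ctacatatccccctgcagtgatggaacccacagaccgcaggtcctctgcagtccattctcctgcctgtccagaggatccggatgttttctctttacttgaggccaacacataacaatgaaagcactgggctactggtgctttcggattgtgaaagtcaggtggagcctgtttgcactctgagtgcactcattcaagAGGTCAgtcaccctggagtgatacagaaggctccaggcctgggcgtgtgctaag
SERPINB9: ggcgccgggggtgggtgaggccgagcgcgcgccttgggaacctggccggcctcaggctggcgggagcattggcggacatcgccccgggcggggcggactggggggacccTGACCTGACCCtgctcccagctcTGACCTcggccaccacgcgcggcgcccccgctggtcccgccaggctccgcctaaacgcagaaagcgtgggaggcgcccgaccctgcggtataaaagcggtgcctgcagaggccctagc

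**Figure D2:**
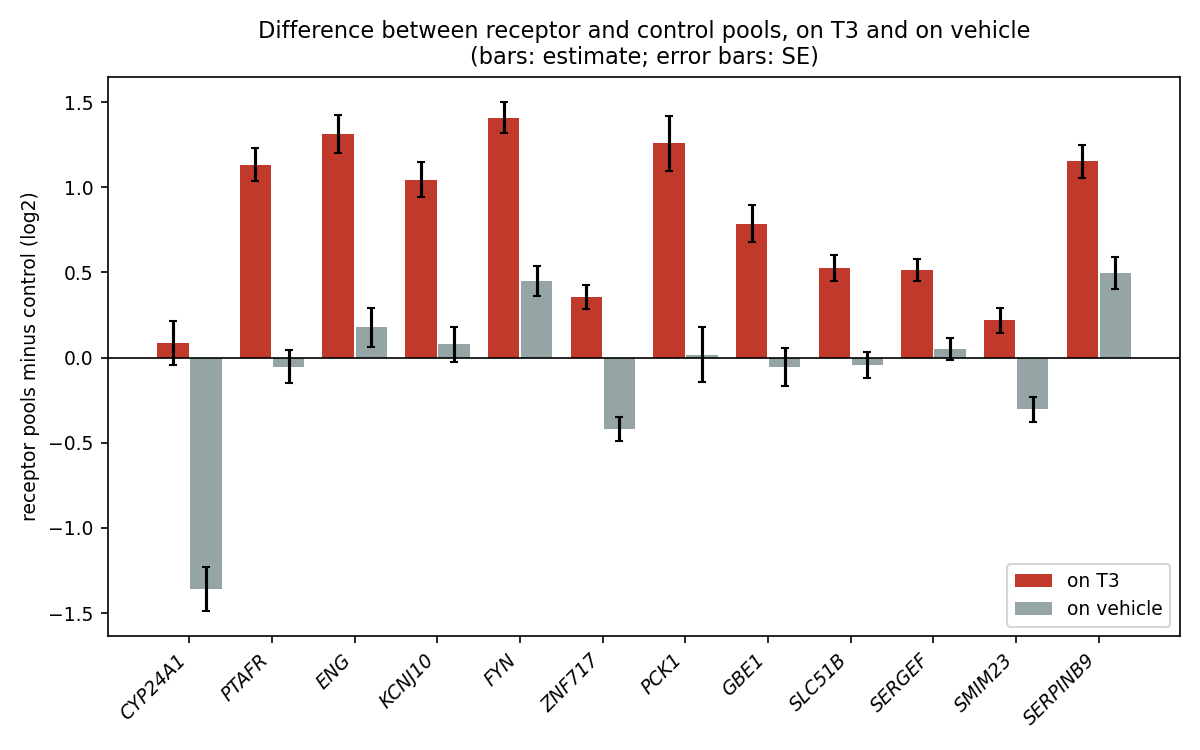
Difference between the receptor pools (mean of TRα1 and TRβ1) and the control pool, in log2 units, on T3 (red, left bar) and on vehicle (grey, right bar) for the 12 named genes with a higher gain. Bars are estimates, error bars the SE, and the gain is the red bar minus the grey one: CYP24A1 has its large bar on vehicle (-1.36), while ENG (1.31) and FYN (1.41) have theirs on T3.

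The vehicle arm and the T3 arm of the gain were also counted over all features. The receptor pools differed from control on T3 for 481 features (2.34%), 294 higher (1.43%) and 187 lower (0.91%). On vehicle they differed for 330 (1.61%), 229 higher (1.11%) and 101 lower (0.492%). Among the 6 called genes, 5 had a called difference on T3 and 3 on vehicle. HMOX1, heme oxygenase, shows how a difference between pools can stand without a gain. It was 0.86 higher on T3 and 0.71 higher on vehicle in the receptor pools (adjusted p = 3.74e-06 and 2.67e-05), and its gain was 0.15 ± 0.09 (adjusted p = 1). THRA, the gene for TRα, had levels of 7.96, 8.22 and 7.71 on T3 and 7.39, 7.55 and 7.55 on vehicle in the TRα1 pool, above all arrays of the TRβ1 pool (6.85 to 7.22) and of the control pool (6.77 to 7.19). Its gain was 0.25 ± 0.16 (adjusted p = 1). THRB, the gene for TRβ, had means of 7.42 on T3 and 6.95 on vehicle in the TRβ1 pool. Its means were 7.19 and 6.74 in the TRα1 pool and 7.07 and 6.65 in the control pool. The highest THRB array was a T3 array of the TRα1 pool, at 7.505. THRB responded to T3 by 0.46 ± 0.08 in the receptor pools (adjusted p = 0.00596) and 0.43 ± 0.11 in the control pool (adjusted p = 0.43). The gain of THRB was 0.03 ± 0.14, and that of RXRA, a retinoid X receptor, 0.04 ± 0.09 (adjusted p = 1 for both). The arrays give no measure of the added receptors as such, because it is not known which stretches of the plasmid transcripts these probes match.

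Most genes that responded in the receptor pools had no called gain. T3 changed 309 features there (1.5%), 246 higher (1.2%) and 63 lower (0.307%). Of the 246, 6 had a called gain and 240 did not, and of the 63, 0 did. Since a test of a difference between responses has a larger SE than a test of 1 response, the 240 are not shown to respond equally. In the control pool T3 changed 20 features, all higher (0.0973%), and all 20 were also called higher in the receptor pools. Their median response was 0.79 in the receptor pools and 0.68 in the control pool. Because they were chosen on the control values, which favours large control responses, no test is given. The gain was above 0 for 15 of them and was called for FYN only.

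HEG1, a transmembrane protein known from heart and vessel development, had a response of 1.68 ± 0.08 in the receptor pools and 1.56 ± 0.12 in the control pool, the highest of the 20 in that pool. Its gain was 0.12 ± 0.14 (95% interval -0.18 to 0.43). COQ10A, a coenzyme Q binding protein, responded by 1.76 ± 0.09 in the receptor pools and 1.39 ± 0.13 in the control pool, a gain of 0.37 ± 0.16. TP53INP2, a regulator of autophagy, responded by 1.58 ± 0.08 in the receptor pools and 1.18 ± 0.12 in the control pool, a gain of 0.40 ± 0.14. None of these 3 gains passed (adjusted p = 1). F13B, the B subunit of coagulation factor XIII, went the other way, with responses of 0.57 ± 0.13 in the receptor pools and 1.10 ± 0.19 in the control pool, and a gain of -0.53 ± 0.23 (adjusted p = 1).

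**Figure D3:**
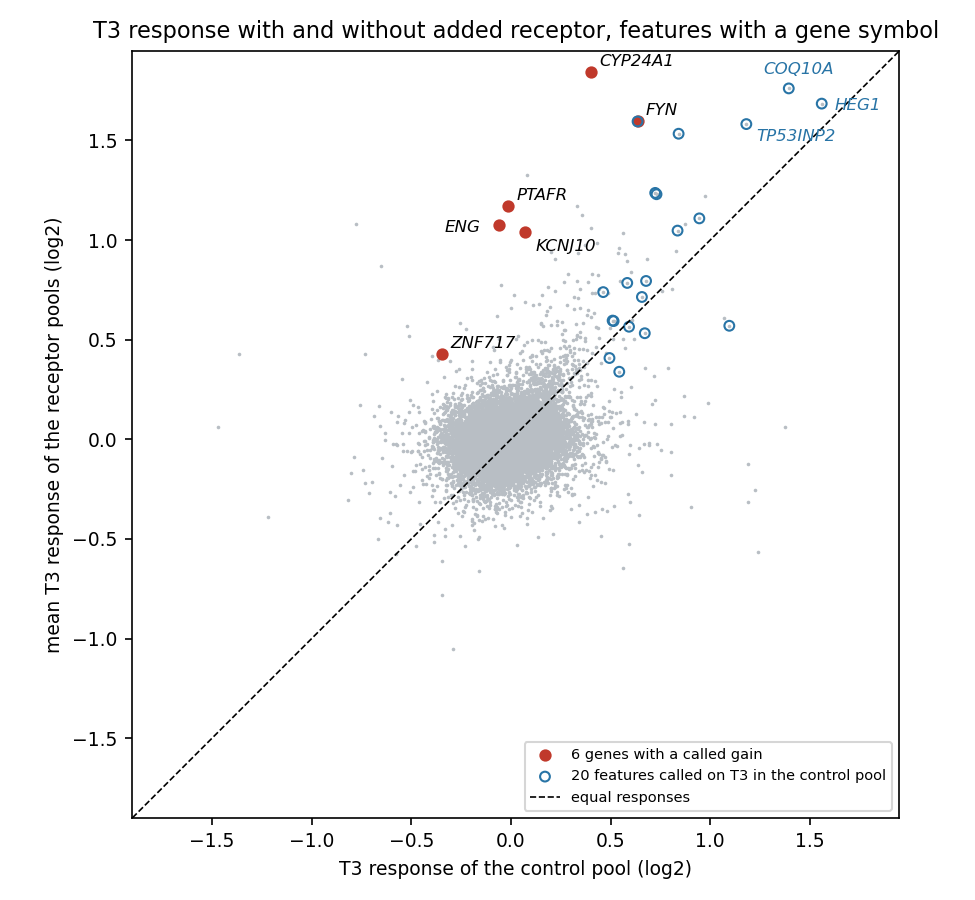
Mean T3 response of the receptor pools (vertical axis, log2) against the T3 response of the control pool (horizontal axis, log2) for 20546 features. Red points are the 6 genes with a called gain, blue circles the 20 features called on T3 in the control pool, and the dashed line marks equal responses: PTAFR, ENG and KCNJ10 lie near a control response of 0, whereas HEG1 lies close to the line.

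Genes called in 1 receptor pool were followed in the gain of the other, an estimate that shares no array with the response they were called on. The p-values behind the calls did use the residual spread of all 18 arrays, so the following values are a description. T3 changed 137 features in the TRα1 pool (0.667%). The 120 higher ones (0.584%) had a median TRβ1 gain of 0.21, and 111 of them (92.5%) were above 0, against 49% of all features. T3 changed 98 features in the TRβ1 pool (0.477%), and its 83 higher ones (0.404%) showed a median TRα1 gain of 0.30, with 79 (95.2%) above 0, against 48.9% of all. The 17 called lower in the TRα1 pool (0.0827%) had a median TRβ1 gain of -0.19, with 2 above 0. For the 15 called lower with TRβ1 (0.073%) it was a TRα1 gain of -0.22, with 2 above 0. Features called on T3 in one receptor pool thus mostly had a gain in the same direction in the other, although most single gains were below what the test could call.

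Large gains were not always gains of a receptor response. A gain of at least 0.5 was found for 109 features (0.531%), and of these 27 had a called higher response in the receptor pools. In 85 of the 109 the control response was below 0, and in 60 it was larger in size than the receptor response. Their median response was 0.27 in the receptor pools and -0.35 in the control pool. Gains of -0.5 or lower were found for 98 features (0.477%). Of these, 3 had a called lower response in the receptor pools, 97 had a control response above 0, and the median response was -0.17 in the receptor pools and 0.46 in the control pool. A mean level under 4, near the dim end of the arrays, was found for 38 of the 109 and 28 of the 98.

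The named genes with a lower gain were of both kinds, and none passed the test of the gain. CX3CR1, the fractalkine receptor, had responses of -0.14, -0.24 and 0.11 with TRα1 and -0.40, -0.22 and -0.44 with TRβ1, against 0.36, 0.41 and 0.65 in the control pool. Its gain was -0.69 ± 0.12 (adjusted p = 0.089), at a mean level of 3.46. SNORD116-13, a small nucleolar RNA of an imprinted cluster of near-identical copies, gained -0.76 ± 0.14 (adjusted p = 0.138), with a response of -0.38 in the receptor pools (adjusted p = 0.0239) and 0.38 in the control pool (adjusted p = 0.503). ZNF443, a zinc finger gene, gained -0.86 ± 0.20 (adjusted p = 0.485), and its control response of 0.59 was larger in size than its receptor pool response of -0.28. C5orf63 gained -0.50 ± 0.12 (adjusted p = 0.581) with a receptor pool response of -0.06. TCP11L2, SCN9A (a voltage-gated sodium channel), PALMD and MAML2 (a Notch coactivator) had gains between -0.50 and -0.39, with adjusted p between 0.53 and 0.835, and their receptor pools fell on T3 by 0.34 to 0.42 (adjusted p between 0.00219 and 0.0108). In these 4 genes the control response lay between 0.05 and 0.14.

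**Figure D4:**
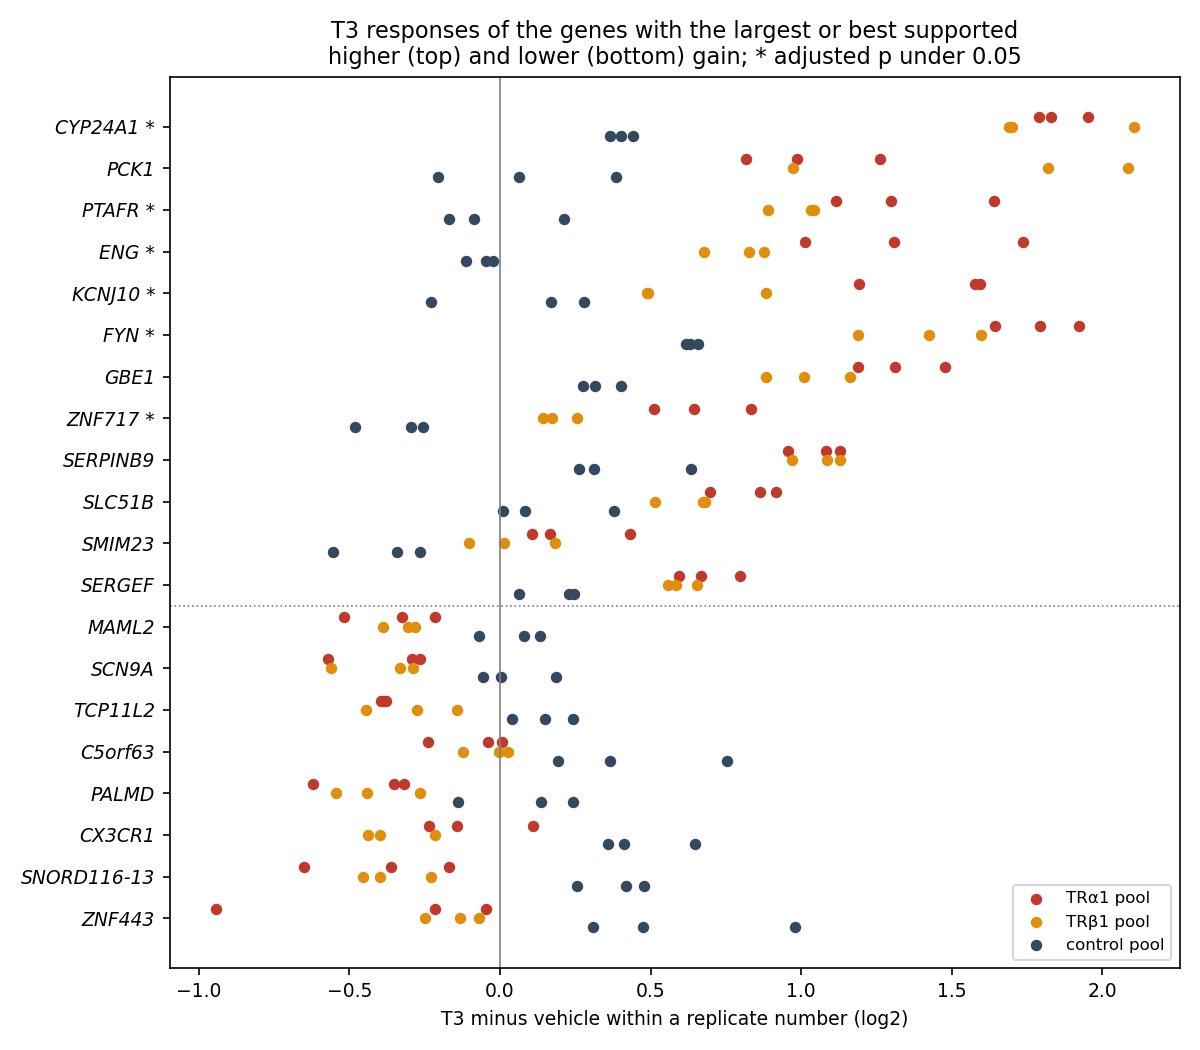
T3 minus vehicle within each replicate number (horizontal axis, log2) in the TRα1, TRβ1 and control pools, 3 points per pool, for the 12 named genes with a higher gain (top) and the 8 with a lower gain (bottom). Asterisks mark an adjusted p of the gain under 0.05. For CYP24A1 the receptor pool points lie between 1.69 and 2.10 and the control points between 0.36 and 0.44, and for the lower genes most control points lie above 0.

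Gene lists of hormone action and liver function were read by their counts. Several were built around genes already known to respond in these arrays, so that a called member is no independent support. Of 25 thyroid hormone target genes measured, 0 had a called gain, 18 had a gain above 0 (72%, against 48.6% of all features), and the median gain was 0.09, against -0.005 for all features. The receptor pool response was called higher for 7 of the 25 and lower for 1, against 1.2% and 0.307% of all features. PCK1, G6PC1, CPT1A, KLF9 and FURIN had all receptor responses above all control responses, 5 of 25 against 1.57% of all features. G6PC1, the catalytic subunit of glucose-6-phosphatase, had a gain of 0.77 ± 0.21 (adjusted p = 0.81), from responses of 1.13 in the receptor pools and 0.36 in the control pool. CPT1A, which controls entry of fatty acids into mitochondria, had a gain of 0.48 ± 0.12 (adjusted p = 0.721), from 1.04 in the receptor pools and 0.56 in the control pool. KLF9, a transcription factor known as a direct T3 target, had a gain of 0.48 ± 0.13 (adjusted p = 0.835), from 0.52 in the receptor pools and 0.04 in the control pool. SLC2A1, the glucose transporter GLUT1, fell by 0.61 in the receptor pools (adjusted p = 2.49e-05), and its control response was -0.35 (adjusted p = 0.296), a gain of -0.26 ± 0.10 (adjusted p = 1).

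Among the metabolic lists the median gain lay between -0.03 and 0.12, against -0.005 for all features. Glucose and glycogen genes had 8 of 15 gains above 0 (53.3%) and a median of 0.01. The gains of PCK1, GBE1 and G6PC1 stood well above the other 12. Fatty acid oxidation genes had 6 of 13 above 0 (46.2%) and a median of -0.01. They were led by ANGPTL4, an inhibitor of lipoprotein lipase, at 0.49 ± 0.18, and CPT1A. Genes of lipogenesis and cholesterol had 4 of 13 above 0 (30.8%, against 48.6% of all features) and a median of -0.03, with none further from 0 than INSIG1, a regulator of sterol sensing, at -0.18 ± 0.15. Bile acid genes had 9 of 13 above 0 (69.2%) and a median of 0.12. SLC51B led them, followed by ABCB4, the phospholipid exporter of bile, at 0.24 ± 0.16. None of these 4 lists had a called gain.

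Of 7 vitamin D genes, CYP24A1 alone had a called gain, against 0.0292% of all features. Gains were above 0 for 4 of 7 (57.1%, against 48.6% of all features), and the median was 0.19. CYP2R1, a liver hydroxylase that begins vitamin D activation, stood at 0.32 ± 0.15 (adjusted p = 1). Among 11 genes of potassium and sodium channels KCNJ10 was called, 7 were above 0 (63.6%) and the median was 0.10. SCNN1A, the α subunit of the epithelial sodium channel, gained 0.69 ± 0.16 (adjusted p = 0.53). It rose on T3 with and without added receptor, by 1.53 in the receptor pools and 0.84 in the control pool, and on vehicle the receptor pools differed from control by -0.51 (adjusted p = 0.0347). SGK1, a kinase that regulates that channel, gained 0.36 ± 0.14 (adjusted p = 1).

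Over all features 0.0292% had a called gain and 48.6% a gain above 0. Of 16 genes of the TGF-β and BMP receptor axis ENG was called, 9 were above 0 (56.2%) and the median was 0.02. ACVRL1, a type I receptor that works with endoglin, gained 0.21 ± 0.09, and SMAD1, a transducer of BMP signals, gained -0.31 ± 0.11 (adjusted p = 1 for both). Of 11 Src family genes FYN was called, 7 were above 0 (63.6%) and the median was 0.03. BLK, LCK and CSK, the kinase that restrains the family, had gains of 0.23, 0.16 and 0.15 (adjusted p = 1). Of 12 innate immune genes PTAFR was called, 9 were above 0 (75%) and the median was 0.14. The receptor pool response was called higher for 5 of these 12, against 1.2% of all features: PTAFR, SERPINB9, CD14, IRF1 and BCL3. As the lists were chosen with earlier results of these data known, this higher share is no independent support. CD14, a co-receptor for lipopolysaccharide, and IRF1, an interferon response factor, had gains of 0.39 ± 0.15 and 0.40 ± 0.16 (adjusted p = 1 for both). Of the 5 leukocyte markers, 1 had a gain above 0 (20%), and the range was -0.12 to 0.11. The median of their levels lay between 4.99 and 5.11 in the 6 groups. The part of such cells in these results was not tested.

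The remaining lists had no called gain. Circadian genes had 8 of 14 gains above 0 (57.1%, against 48.6% of all features) and a median of 0.03. NR1D1, the nuclear receptor REV-ERBα, is encoded on the strand opposite to THRA. Its responses were 0.53 in the receptor pools (adjusted p = 4.7e-05) and 0.26 in the control pool, a gain of 0.27 ± 0.10. Coagulation genes had 9 of 15 above 0 (60%) and a median of 0.00. Stress genes had 6 of 11 above 0 (54.5%) and a median of 0.00, with GADD45A, a DNA damage response gene, highest at 0.38 ± 0.10 (adjusted p = 0.81). Cell cycle genes had 7 of 12 above 0 (58.3%) and a median of 0.02. Genes of receptors and cofactors had 9 of 15 above 0 (60%) with a median of 0.03. NCOA1 and NCOA2, the steroid receptor coactivators, had gains of -0.20 and -0.21 (adjusted p = 1). Genes of hormone transport and deiodination had 5 of 10 above 0 (50%) and a median of -0.02. DIO1, the type 1 deiodinase and a known liver target of T3, responded by 0.30 in the receptor pools (adjusted p = 0.0192) and 0.34 in the control pool (adjusted p = 0.355), a gain of -0.04 ± 0.10.

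**Figure D5:**
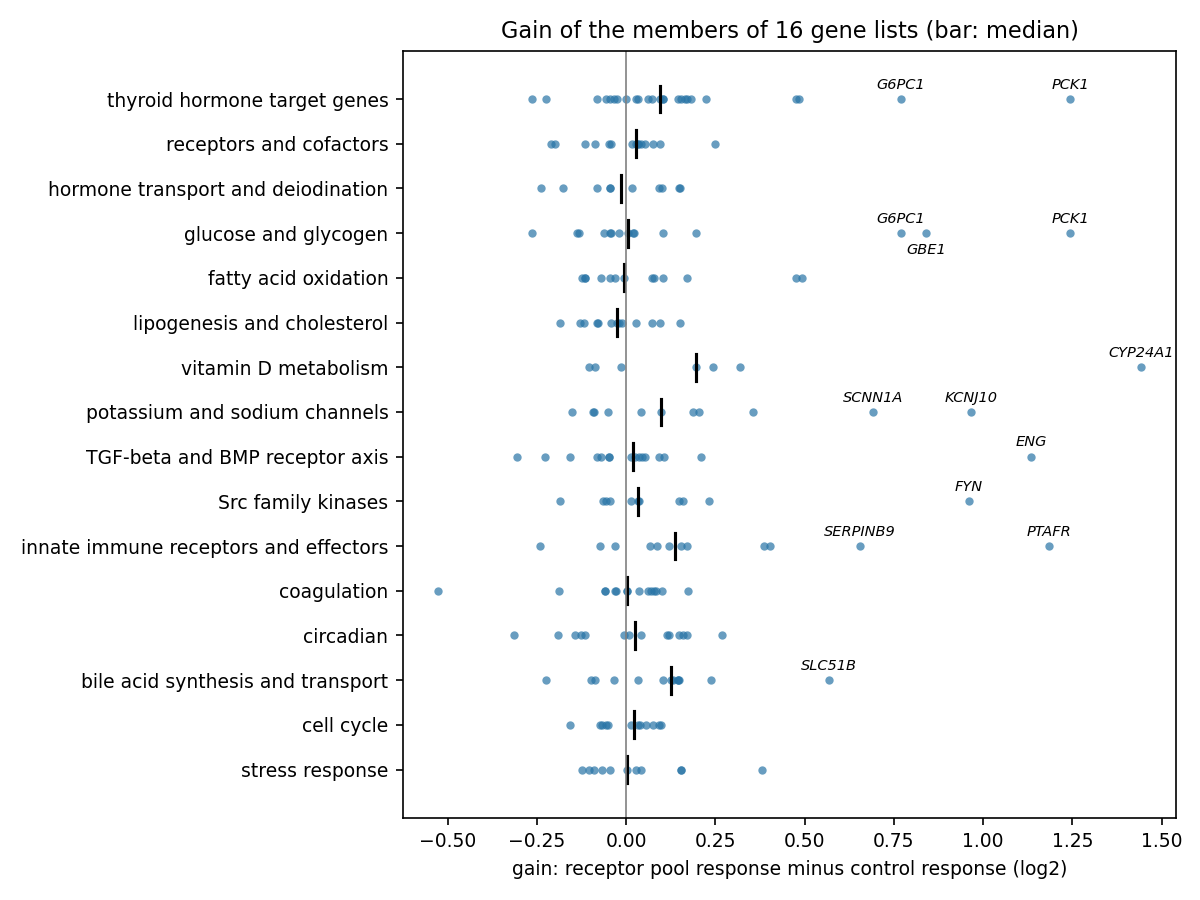
Gain (horizontal axis, log2, receptor pool response minus control response) of every measured member of the 16 gene lists, 1 point per gene, with the list median as a black bar. Genes with the highest gains are named: list medians lie between -0.03 and 0.19, while single members such as CYP24A1, PCK1, PTAFR and ENG lie beyond 1.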

How the data were processed

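RNA from 18 cultures was hybridized to Affymetrix Human Gene ST arrays, 1 per culture. The deposited unit is log2 expression, 1 value per transcript cluster and array. Per the submitters' processing notes the authors made them with RMA under R 2.7.1, a method that corrects background, equalizes the distributions of the arrays and summarizes probes. Scanner files were not used here, so these steps could not be varied. Groups came from the sample titles. The table came without a genome build. The 11775 features without a gene symbol were left out of the main fit, and fitted alone they gave 0 called gains.

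A linear model with 6 groups and the replicate number as a block was fitted to 20546 features with limma 3.58.1 in R 4.3.3 (empirical Bayes, 10 residual degrees of freedom, two-sided, Benjamini-Hochberg within a contrast, threshold 0.05). The block was kept because responses are taken within number. The pairing was checked on deviations from group means: all 45 same-numbered pairs from different groups correlated at 0.259 or more, the median for differently numbered pairs was -0.483, and 18 of 18 arrays had their best match at the same number. The repeats are called biological in the labels, and p-values measure the spread between them. Arrays have no read depth, and 3 per group limits the precision. The script was tested on simulated data.

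Named genes were the called ones, filled to 12 higher and 8 lower genes by p, up to 4 members of each list by moderated t, and THRA, THRB, RXRA, HEG1, COQ10A and TP53INP2. A gene with several features is given by the one of highest mean. FURIN, DIO1, BCL3, KDR and SKP1 were named after their values were seen. The 16 gene lists and 6 marker lists held 268 entries, of which 244 matched a feature. The members, lists and tests were chosen with earlier results of these data known. Alternatives were no replicate block, a block within each pool, array weights, a filter on dim features, single-gene features, all features of the table, median centring, a trended robust variance, and leaving out each array or number.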

Additional observations from a re-analysis of the deposited data

Results flagged for a closer look

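The T3 responses of the receptor and control pools differed by the interaction test for 6 genes, whose gains on the log2 scale were 1.44 for CYP24A1, 1.19 for PTAFR, 1.13 for ENG, 0.97 for KCNJ10, 0.96 for FYN and 0.77 for ZNF717. For 5 named genes every receptor pool response lay on one side of 0 and every control response on the other, while the difference did not pass the interaction test. Their gains were -0.76 for SNORD116-13, -0.86 for ZNF443, -0.48 for TCP11L2, -0.18 for TTR (transthyretin, a carrier of thyroid hormone) and 0.15 for CSK. All 5 were named by the p or moderated t of their gain, a choice that favours such separations. For TTR and CSK the signs rest partly on responses close to 0. TTR had 0.007 in the control pool in number 1 and -0.009 with TRβ1 in number 3. CSK had 0.006 with TRβ1 in number 1. The share of all features with such opposite signs was not counted. Receptor responses all above the control responses were shown by 1.57% of all features, and all below by 1.4%. ENG and ZNF717, both called genes, showed the same arrangement of signs.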

How the results depend on the processing

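The gain passed for 6 features in the fit reported and 0 with no replicate block. It passed for 3 among features with a mean of at least 6, a filter that left PTAFR, KCNJ10 and ZNF717 untested. Array weights gave 4 features, and so did the fit that included features without a symbol. A block within each pool gave 6, single-gene features 7, median centring 7 and a trended robust variance 8. Of these 8 settings, ENG passed in 5, and CYP24A1 and FYN in 7. KCNJ10 passed in 3 of the 7 that tested it, and PTAFR and ZNF717 in 6 of 7. Leaving out 1 array or number gave 0 to 8 features, with 0 without any one number and without the control vehicle array of number 3, and 3 without the control T3 array of number 2. With no replicate block, the adjusted p was 1 for CYP24A1 and ZNF717, 0.257 for PTAFR and FYN and 0.305 for ENG and KCNJ10. The gain itself stayed between 1.33 and 1.56 for CYP24A1, 1.06 and 1.34 for PTAFR, 1.05 and 1.23 for ENG, 0.85 and 1.09 for KCNJ10, 0.88 and 1.04 for FYN, and 0.71 and 0.82 for ZNF717 over all settings. TRα1 gains passed for 0 features with no replicate block, 3 with the filter on dim features and 0 to 9 with an array or number left out. TRβ1 gains passed for 1 with a block within each pool, 1 with the dim filter, 1 with a trended robust variance and 0 to 2 with arrays left out. The receptor pool response was called for 79 features with no replicate block, 481 with array weights and 93 to 323 with arrays left out. The control response was called for 2 with no replicate block, 8 with array weights, 9 over all features of the table, 33 with a trended robust variance and 2 to 19 with arrays left out. The T3 arm gave 64 with no replicate block, 735 with the trended robust variance and 68 to 541 with arrays left out. The vehicle arm gave 45 with no replicate block and 42 to 359 with arrays left out, and the difference between isoforms gave 0 to 1. Of 77 named genes, 3 changed sign, each close to 0 and each with an array or number left out. Over these settings THRB lay between -0.078 and 0.102, RXRA between -0.048 and 0.0945, and CDKN2B between -0.0288 and 0.207. The cause of these changes was not tested beyond the smaller number of arrays or features in some of the settings.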
